A study of Mus musculus with 12 samples.

Results

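The genes described here encode 53 core proteins of the spliceosome, the machine that removes introns from pre-mRNA. They were chosen by name and not by a cut on any measured value, although earlier results of these data were known. All 53 of 53 were found among the 42450 gene identifiers of the table. They fall into 8 roles: 7 proteins of the Sm ring, 4 of the U1 snRNP, 3 that bind the branch point or the 3′ splice site, 12 of the U2 snRNP, 11 of the U4/U6 and U5 tri-snRNP, 9 of the PRPF19 complex and the activated spliceosome, 6 of the second step, release and recycling, and 1 of the minor spliceosome. PolyA+ RNA was sequenced from E14tg2a.4 cells, a wild-type mouse embryonic stem cell (ESC) line grown with LIF, after transfection of 50 nM siRNA duplexes to *Srrm2* (Srrm2-KD) or, as control, to the firefly luciferase gene, which mouse cells lack (Gl2-KD). Cells were harvested at 24 h, or were transfected again at 24 h and harvested at 72 h, all in serum-free ESGRO medium with LIF before harvest. Each of the 4 groups had 3 libraries, 1 from each of 3 experiments, which makes 12. The time between 24 h and 72 h therefore cannot be told apart from the second transfection. The knockdown is transient and was made in 1 parental line, and the methods list more than 1 *Srrm2* duplex without saying in the sources used here which duplex a library received.

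Introns are removed by small nuclear ribonucleoproteins (snRNPs) that assemble anew on each intron. U1 pairs with the 5′ splice site, SF1 and the U2AF pair mark the branch point and the 3′ splice site, and U2 with its SF3a and SF3b subcomplexes then takes the branch point. The tri-snRNP of U4, U6 and U5 joins next, helicases and the complex around PRPF19 rearrange it into the active spliceosome, and further helicases drive the second step and the release of the mRNA. SRRM2 is a large serine- and arginine-rich protein of nuclear speckles, and the yeast relative of its amino-terminal part, Cwc21, binds the U5 proteins Prp8 and Snu114, the relatives of PRPF8 and EFTUD2. The comparisons below therefore ask whether the transcripts of the machine change when the transcript of one of its partners is lowered.

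The totals ranged from 73933196 to 153343831 estimated counts per library. The *Srrm2* transcript, in CPM (counts relative to the TMM-scaled library total), was at 911, 496 and 449 in Gl2-KD and at 517, 154 and 199.8 in Srrm2-KD at 24 h in experiments 1, 2 and 3. At 72 h it was at 962, 479 and 442 in Gl2-KD and at 461, 182 and 217 in Srrm2-KD, so that it was lower in Srrm2-KD in every experiment although the groups overlapped. At 24 h the log2 fold change was -1.22 ± 0.14 (SE; adjusted p = 0.0663, edgeR) and at 72 h -1.16 ± 0.14 (adjusted p = 0.0991). This fit thus did not call *Srrm2* itself at either time alone. DESeq2 called it at 24 h and at 72 h (adjusted p = 5.03e-11 and 1.72e-09), and so did limma-voom (adjusted p = 0.0277 and 0.0218). With a replicate block for each experiment and time point, edgeR called it at 72 h (adjusted p = 0.0242) but not at 24 h (0.169). Over both times the log2 fold change was -1.19 ± 0.10 (SE; adjusted p = 0.00254, by the quasi-likelihood test of edgeR, Benjamini-Hochberg adjusted over all genes), and the call was lost without the replicate block (adjusted p = 1) and without experiment 2 (0.0899) or experiment 3 (0.102). ESC markers were high, with *Pou5f1* between 1149 and 1956 CPM, and 17 of 21 markers of other cell types averaged below 2 CPM. The markers above that level were *Pax6*, *Thy1*, *Krt7* and *Eomes*, and the highest of them, *Pax6*, reached 34.6 CPM in 1 library, while 6 of the 21 were listed at 0 in at least 1 library. The 4 libraries of experiment 1 stood apart from the other 8 at many of the 53 genes, as described at the end.

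All 53 members passed the filter on low counts that left 19410 genes, and together they took 8874 to 11349.5 CPM of a library, on average 1.02% of the counts. Their summed level was 10138 ± 1017 CPM for Gl2-KD at 24 h and 10554 ± 803 CPM in Srrm2-KD at the first time (SD, n = 3). At 72 h the sums were 9779 ± 789 and 10424 ± 1112 CPM, so that the groups overlapped at both times. In experiments 1, 2 and 3 the sum was 9281, 11261.5 and 9870 CPM in Gl2-KD at 24 h and 9743, 11349.5 and 10569 CPM in Srrm2-KD. At 72 h it was 10147, 10317 and 8874 CPM in Gl2-KD and 10896, 11222 and 9154 CPM in Srrm2-KD. The sum was thus higher in Srrm2-KD in every experiment at both times, which was not tested. No member was near the limit of detection, as the lowest count of a member in any library was 992. In bulk RNA, fewer cells that express a gene and less RNA of it per cell cannot be told apart. Levels were compared between genes only after division by the mean length of the coding transcripts, in CPM per kb over the 6 Gl2-KD libraries.

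On that scale the members spanned a wide range. *Snrnp70*, the U1 protein that grips U1 RNA, was highest at 487 ± 111 CPM per kb (SD, n = 6 libraries), followed by *Snrpe* of the Sm ring at 427 ± 107 and *U2af1*, which reads the AG of the 3′ splice site, at 326 ± 69.2. These values overlapped between neighbours in the order. The lowest were *Prpf39*, a U1-associated protein, at 7.46 ± 1.68 and *Rnpc3*, a protein of the U11/U12 snRNP of the minor spliceosome, at 8.08 ± 1.99, which overlapped each other too. By role, the median was 161 CPM per kb for the Sm ring, 143 for the U1 snRNP, 179 for the branch point and 3′ splice site group, 80.6 for the U2 snRNP, 74.3 for the tri-snRNP, 67.9 for the PRPF19 group and 22.5 for the second-step group. With the longest coding transcript the branch point group was at 124, below the Sm ring at 161. Within the SF3b subcomplex *Sf3b2* was at 217 ± 18.3 CPM per kb, and *Sf3b1*, which clamps the branch point, at 77.3 ± 13.3. *Sf3b5* was at 21.5 ± 3.96 CPM per kb, scaled by its annotated transcript of 3841 bases. With the longest coding transcript in place of the mean, *Snrnp70* was at 218 CPM per kb, below *Snrpe* at 282, *U2af1* at 259.7 and *Snrpb* at 227, while *Sf3b2* was at 140.1 and *Prpf39* at 4.4, still the lowest.

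**Figure D1:**
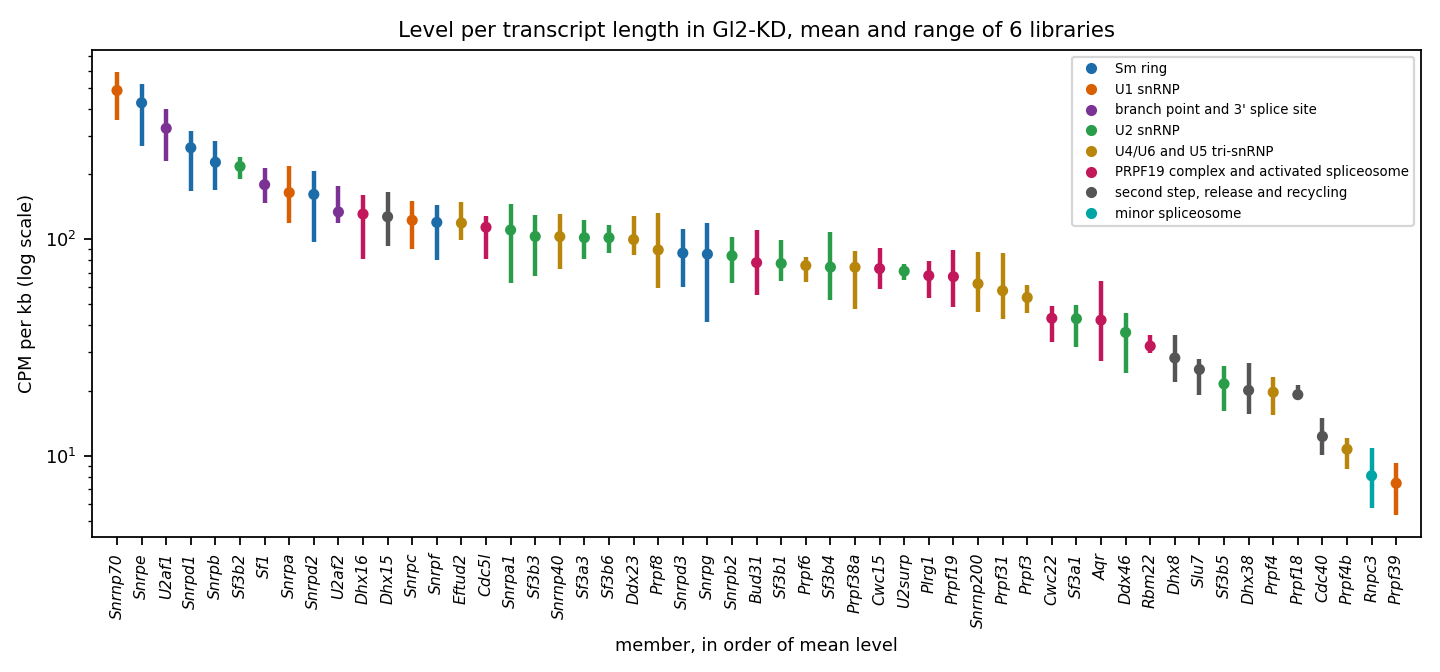
Level of each member in CPM per kb of mean coding transcript length (log axis), in order of the mean. Points are means and bars run from the lowest to the highest of the 6 Gl2-KD libraries, coloured by role; *Snrnp70* stands first and *Prpf39* last.

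The Kallisto estimates split reads between near-identical genes, so some members are less certain than others. Of the 31-base words in its annotated transcripts, *U2af1* shared 57.1% with other annotated genes, *Sf3b4* 55%, *Cdc5l* 49.5%, *Cwc22* 43.7%, *U2af2* 39.2% and *Snrpa* 32.4%. *Rnpc3* shared 22% with *Amy1*, which overlaps it on the same strand. *Bud31* overlaps *Ptcd1* and *Sf3b3* overlaps *Cog4* on the opposite strand, and the sources used here do not say whether the stranded libraries were counted by strand. *Sf3b5* shared 0.9%, and *Sf3b3*, *Bud31* and *Prpf8* shared 0%.

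Promoter windows of 250 bases before to 50 after the start were at hand in RefSeq (GRCm38.p6) for 41 of the 53 members, 1 window per gene at its most upstream start. No window was given for *Snrpb*, *Snrpd1*, *U2af2*, *Sf3b4*, *Sf3b5*, *Snrnp40*, *Eftud2*, *Ddx23*, *Rbm22*, *Dhx38*, *Slu7* and *Prpf18*. A set of 5 short motifs were searched on both strands: CCGGAAG of ETS factors, GGGCGG of the GC box, CCAAT of NF-Y, TATAAA of the TATA box and GCATGCGC of NRF1, none of which contains another. CCGGAAG was in 19 of 41 members (46.3%), against 9.14% of all 27025 gene promoters and 23.2% of the 5746 promoters of genes expressed at or above the lowest member. For the GC box the shares were 56.1%, 35.9% and 69.5%, for CCAAT 41.5%, 38% and 40.9%, for TATAAA 7.32%, 14.2% and 6.02%, and for GCATGCGC 4.88%, 2.8% and 6.87%. These shares are counts of letters and had no test. The windows of 3 members from different roles that carry CCGGAAG are shown, since the values of these genes recur below. They are *Snrpg* of the Sm ring (chr6:86371290-86371589, plus strand), *Sf3b3* of the U2 snRNP (chr8:110846754-110847053, minus strand) and *Snrnp200*, the helicase that unwinds U4 from U6 (chr2:127208136-127208435, plus strand), each 5′ to 3′ on the strand of its gene, with all matches to the 5 motifs on either strand in capitals.
Snrpg: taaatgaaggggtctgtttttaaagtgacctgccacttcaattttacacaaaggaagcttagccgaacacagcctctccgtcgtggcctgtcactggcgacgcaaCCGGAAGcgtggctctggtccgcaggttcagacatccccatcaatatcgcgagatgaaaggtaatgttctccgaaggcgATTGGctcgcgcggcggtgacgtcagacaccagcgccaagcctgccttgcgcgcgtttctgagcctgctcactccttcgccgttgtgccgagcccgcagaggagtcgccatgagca
Sf3b3: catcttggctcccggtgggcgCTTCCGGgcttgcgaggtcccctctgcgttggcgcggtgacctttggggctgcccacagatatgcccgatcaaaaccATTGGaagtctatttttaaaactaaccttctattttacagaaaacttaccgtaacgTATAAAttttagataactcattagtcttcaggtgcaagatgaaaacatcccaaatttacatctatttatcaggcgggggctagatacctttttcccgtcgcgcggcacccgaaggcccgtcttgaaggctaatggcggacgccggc
Snrnp200: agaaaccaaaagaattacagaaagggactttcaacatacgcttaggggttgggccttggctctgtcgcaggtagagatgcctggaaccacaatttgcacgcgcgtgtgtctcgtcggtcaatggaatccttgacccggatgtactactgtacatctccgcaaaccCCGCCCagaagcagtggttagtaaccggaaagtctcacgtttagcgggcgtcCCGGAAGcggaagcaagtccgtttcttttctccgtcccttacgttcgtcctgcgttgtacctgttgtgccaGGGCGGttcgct

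After knockdown of *Srrm2*, 0 of the 53 core spliceosome transcripts passed the test against Gl2-KD at 24 h or at 72 h, and nearly all fold changes were bounded within 1.5-fold. At 24 h the log2 fold changes of the 53 members ran from -0.10 to 0.30 with a median of 0.06, and at 72 h from -0.14 to 0.37 with a median of 0.08. Over all 19410 genes the medians were 0.01 and -0.02. The same fit does not call *Srrm2* itself at 24 h or 72 h, so the absence of calls at 1 time says less than the intervals. By edgeR, 0 of 53 members were called at 24 h and 0 of 53 at 72 h, where 0% and 0% of all genes were called. At an unadjusted p below 0.05 stood 1 member at 24 h and 3 at 72 h, against 2.62% and 12.9% of all genes. DESeq2 called 0 members at 24 h and 0 at 72 h (0.129% and 2.79% of all genes), and limma-voom 0 and 0 (0.0103% and 0.0206%). In the mean of both times edgeR again called 0 of 53 members (0.067% of all genes), with 2 at an unadjusted p below 0.05 (13.6% of all genes). These counts depend on the block: when every combination of experiment and time was its own block, edgeR put 2 members at 24 h, 10 at 72 h and 14 over both times at an unadjusted p below 0.05, against 6.93%, 22.6% and 23.7% of all genes. At 72 h it still called 0 members after adjustment, where 3.73% of all genes were called.

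Standard errors of the members at 24 h ran from 0.08 for *Snrpb* to 0.19 for *Sf3b3* on the log2 scale. The 95% confidence interval of the fold change lay within 1.5-fold in both directions for 52 of 53 members at 24 h and 52 of 53 at 72 h, and the exception at both times was *Sf3b3*. Of the 7269 genes at or above the level of the lowest member, 6771 and 6136 met the same limit. The direction was mostly upward: 48 of 53 members were above 0 at 24 h and 40 of 53 at 72 h, where 51.3% and 47.9% of all genes were. These members share the same control libraries and were scaled by the same factors, so their signs are not independent. With single libraries left out, the count above 0 at 24 h ran from 21 to 47, with 21 without the Srrm2-KD library of experiment 3 (median -0.02) and 23 without the Gl2-KD library of experiment 1 (median -0.01), both of 24 h. At 72 h it ran from 27 to 41, the lowest when Srrm2-KD of experiment 1 at 72 h was dropped (median 0.0011). Without experiment 1, 2 or 3 the count above 0 was 42, 49 and 35 at 24 h and 37, 31 and 38 at 72 h. The upward majority at 24 h was thus lost without either of those 2 libraries.

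Within experiments, 17 of 53 members were higher in Srrm2-KD in all 3 experiments at 24 h (17.3% of all genes) and 15 at 72 h (18.8% of all genes). Lower in all 3 were 2 members at 24 h and 5 at 72 h, where 2988 and 4481 of the 19410 genes were. Of the 112 other spliceosome genes described below, 30.4% and 28.6% were higher in all 3, beside 32.1% and 28.3% of the members. In all 6 pairs of a Srrm2-KD and a Gl2-KD library, 9 of 53 members were higher, where 7% of all genes were. These were *Sf3b3*, *Sf3b5*, *Prpf3*, *Prpf6*, *Prpf19*, *Bud31*, *Aqr*, *Cwc22* and *Slu7*, and 0 members were lower in all 6 pairs. The 3 libraries of Srrm2-KD and the 3 of Gl2-KD did not overlap for 0 members at 24 h (3.44% of all genes) and for 2 at 72 h (6.66% of all genes), *Rbm22* and *Sf3b2*, both lower in Srrm2-KD. The plot of knockdown by member shows each experiment beside the fitted value.

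**Figure D2:**
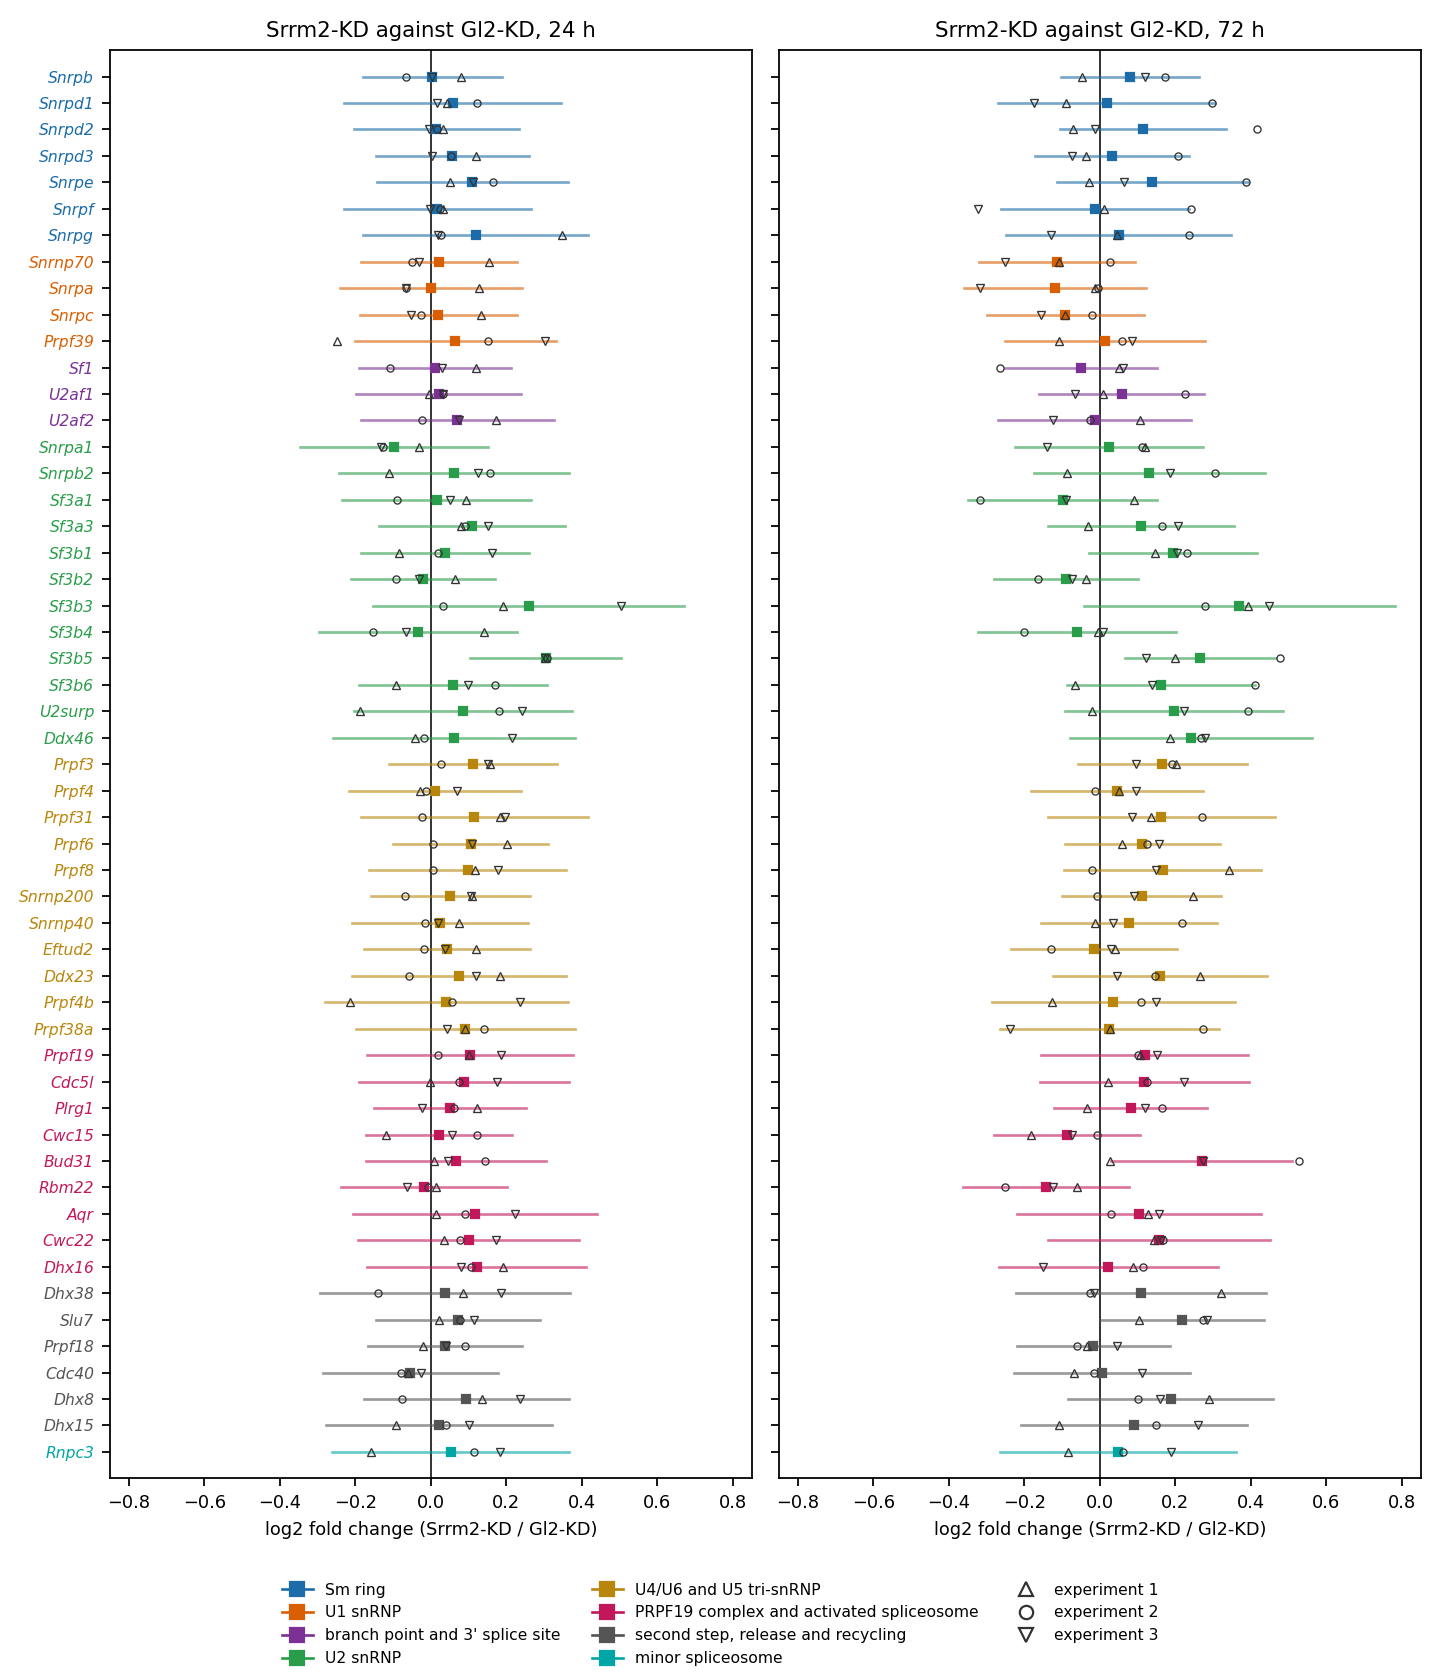
Log2 fold change of Srrm2-KD against Gl2-KD for the 53 members at 24 h and 72 h, by role. Squares are fitted values with 95% confidence intervals, and open symbols are the log2 ratios within experiments 1, 2 and 3; most intervals include 0, and those of *Sf3b5* lie above it at both times.

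The roles are given in the order of their entry into splicing, as log2 fold changes over both times with their SE. The 7 Sm proteins, which form the ring around each snRNA, all lay above 0 with a median of 0.04, from 0.0019 for *Snrpf* to 0.12 for *Snrpe*. *Snrpb*, which encodes the SmB protein, had 0.04 ± 0.06 (SE) on the log2 scale. Of the 4 U1 genes, 3 lay below 0: *Snrnp70* at -0.05 ± 0.07, *Snrpc*, which stabilises the pairing with the 5′ splice site, at -0.04 ± 0.07, and *Snrpa* at -0.06 ± 0.08. At the branch point and the 3′ splice site, *Sf1*, the first branch point binder, had -0.02 ± 0.06 and *U2af1* 0.04 ± 0.07. In these 3 roles 0 genes had an unadjusted p below 0.05 at 24 h, at 72 h or over both times (edgeR), and 0 were called by DESeq2 or limma-voom over both times.

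The 12 U2 genes included the members with the highest values, with 8 above 0, a median of 0.11 and values from -0.06 for *Sf3b2* to 0.31 for *Sf3b3*. The proteins bound to U2 RNA itself, *Snrpa1* and *Snrpb2*, had -0.04 ± 0.08 and 0.10 ± 0.10. Of the SF3a subunits, which tie SF3b to U2, *Sf3a1* had -0.04 ± 0.08 and *Sf3a3* 0.11 ± 0.08. The SF3a gene *Sf3a2* is not a member but is among the 112 other spliceosome genes described below. At 24 h it was at 119.4, 174.5 and 119.8 CPM in Gl2-KD and 117.3, 128.1 and 96 CPM in Srrm2-KD. At 72 h it was at 108.7, 138.2 and 112.7 and at 89.6, 107.1 and 98 CPM, without overlap. Of the 112, edgeR called 0 over both times, with 69 above 0 and 43 below. Among the SF3b subunits, *Sf3b1* had 0.12 ± 0.07, *Sf3b2* -0.06 ± 0.06, *Sf3b4* -0.05 ± 0.08 and *Sf3b6*, which contacts the branch point adenosine, 0.11 ± 0.08, so that *Sf3b3* at 0.31 ± 0.13 and *Sf3b5* at 0.29 ± 0.06 lay above the other SF3b genes. This difference between subunits was not tested. The helicase gene *Ddx46*, needed for U2 to take the branch point, had 0.15 ± 0.10 and *U2surp* 0.14 ± 0.09.

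The 11 tri-snRNP genes all lay above 0, with a median of 0.08 and a range of 0.01 to 0.14. *Prpf3* and *Prpf4*, which bind U4/U6, had 0.14 ± 0.07 and 0.03 ± 0.07. *Ddx23*, whose helicase hands the 5′ splice site from U1 to U6, had 0.12 ± 0.09, and *Snrnp40* of U5 had 0.05 ± 0.07. *Prpf8*, which holds the catalytic core, had 0.13 ± 0.08, *Snrnp200* 0.08 ± 0.07, the GTPase gene *Eftud2* 0.01 ± 0.07, *Prpf31*, which binds the U4 stem, 0.14 ± 0.10, and the kinase gene *Prpf4b* 0.04 ± 0.10. For the proteins next to SRRM2's yeast relative, the 95% intervals of the fold change were -0.05 to 0.32 for *Prpf8* and -0.14 to 0.17 for *Eftud2* on the log2 scale. In the PRPF19 group, *Prpf19*, the ubiquitin ligase that names it, had 0.11 ± 0.09, *Cwc22*, which brings the exon junction complex to the spliceosome, 0.13 ± 0.09, and the helicase gene *Aqr* 0.11 ± 0.10. *Cdc5l* had 0.10 ± 0.09 and *Plrg1* 0.07 ± 0.07, both of the PRPF19 core, while *Cwc15* had -0.03 ± 0.06 and *Rbm22* -0.08 ± 0.07. In the second-step group, *Dhx8*, whose helicase releases the mRNA, had 0.14 ± 0.09, *Dhx38*, whose helicase opens the way to the second step, 0.07 ± 0.11, *Dhx15*, which takes the spent spliceosome apart, 0.06 ± 0.10, and the second-step factor genes *Cdc40* and *Prpf18* -0.02 ± 0.07 and 0.01 ± 0.07. *Rnpc3* had 0.05 ± 0.10. Adjusted p-values of all members over both times were between 0.109 and 0.996 (edgeR).

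*Sf3b5* and *Sf3b3* had the smallest p-values over both times. *Sf3b5* (chr10:13005343-13009183, GRCm38) encodes a small SF3b subunit that packs against SF3B3, and both proteins are also known as subunits of the SAGA coactivator. In experiments 1, 2 and 3 it was at 61.8, 100.2 and 88.7 CPM in Gl2-KD and 76.3, 124 and 109 CPM in Srrm2-KD at 24 h. At 72 h it was at 65.7, 91.2 and 87.1 CPM in Gl2-KD and 75.4, 127 and 94.7 CPM in Srrm2-KD. It was higher in Srrm2-KD in 6 of 6 pairs, while the groups overlapped at both times because experiment 1 was low in both. The log2 fold change was 0.30 ± 0.09 at 24 h (unadjusted p = 0.00638, adjusted p = 1, edgeR), 0.27 ± 0.09 at 72 h (unadjusted p = 0.0137, adjusted p = 0.276) and 0.29 ± 0.06 over both (unadjusted p = 0.000979, adjusted p = 0.109). It thus failed the correction over all genes.

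*Sf3b3* (chr8:110810239-110846787, GRCm38), the large scaffold of SF3b, was at 418, 552 and 376 CPM in Gl2-KD and 477, 565 and 534 CPM in Srrm2-KD at 24 h. At 72 h it was at 589, 558 and 305 and 773, 678 and 416 CPM. It was higher in Srrm2-KD in 6 of 6 pairs, least in experiment 2 at 24 h, and its level moved with time in opposite directions in experiments 1 and 3. The log2 fold change was 0.26 ± 0.19 at 24 h, 0.37 ± 0.19 at 72 h and 0.31 ± 0.13 over both (adjusted p = 0.327, edgeR). Without the Srrm2-KD library of experiment 3 the value at 24 h was -0.02, so that its direction at 24 h rests on that library. With libraries or experiments left out, *Sf3b3* was at 0.17 to 0.52 at 72 h and 0.17 to 0.39 over both times, and *Sf3b5* at 0.15 to 0.33 at 72 h. The lowest of these came without the Srrm2-KD library of experiment 1 at 72 h, the Srrm2-KD library of experiment 3 at 24 h and experiment 2, in that order. The calls for both genes depend on how the replicates are blocked. When every combination of experiment and time was its own block, edgeR called 2 of 53 members over both times, *Sf3b5* (adjusted p = 0.0242) and *Sf3b3* (adjusted p = 0.0272), where 2.11% of all genes were called higher. DESeq2 called *Sf3b5* alone (3.78% of all genes in either direction; adjusted p = 0.00697), where 1.41% of all genes were called higher, and limma-voom called 0 members (0.474% of all genes; adjusted p of *Sf3b5* = 0.0873). 

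**Figure D3:**
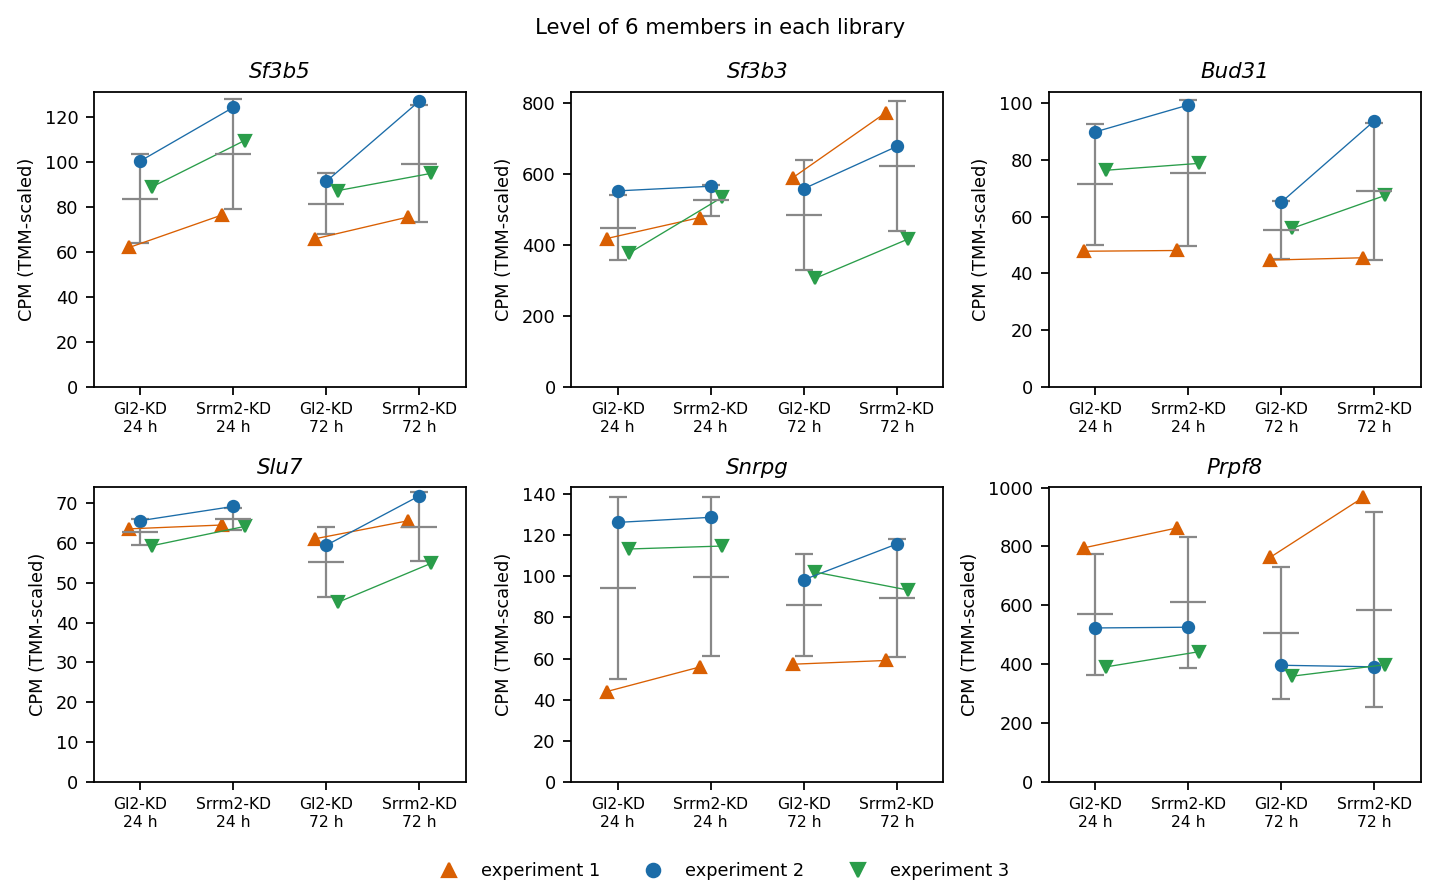
Level of *Sf3b5*, *Sf3b3*, *Bud31*, *Slu7*, *Snrpg* and *Prpf8* in each library in CPM after TMM scaling, on axes that start at 0. Thin lines join the Gl2-KD and Srrm2-KD libraries of the same experiment and time, and grey bars are the mean ± SD of 3 libraries; the first 4 genes are higher in Srrm2-KD along every line, and experiment 1 is lowest for *Snrpg* and highest for *Prpf8*.

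At 72 h *Bud31* and *Slu7* had unadjusted p-values between those of *Sf3b5* and *Sf3b3* (edgeR). *Bud31*, a small protein of the activated spliceosome, was at 44.6, 65 and 55.9 CPM in Gl2-KD and 45.5, 93.7 and 67.5 CPM in Srrm2-KD, a log2 fold change of 0.27 ± 0.11 (adjusted p = 0.335, edgeR). The difference was near 0 in experiment 1 and largest in experiment 2. *Slu7*, which fixes the choice of the 3′ splice site in the second step, was at 61.1, 59.5 and 45.1 and 65.6, 71.9 and 54.9 CPM, with 0.22 ± 0.10 (adjusted p = 0.387). At 24 h the values were 0.07 ± 0.11 for *Bud31* and 0.07 ± 0.10 for *Slu7*. The tri-snRNP genes *Prpf6*, which bridges U5 and U4/U6, and *Prpf3*, a U4/U6 protein, followed *Sf3b5* and *Sf3b3* by p at 24 h among members that moved one way in all 3 experiments, with 0.11 ± 0.09 and 0.11 ± 0.10 (adjusted p = 1 for both). *Rbm22*, which contacts the U6 RNA of the active spliceosome, was at 65.9, 71.5 and 71.4 CPM in Gl2-KD and at 63.2, 60.1 and 65.5 CPM in Srrm2-KD at 72 h. Its Srrm2-KD libraries were all below its Gl2-KD libraries, and the log2 fold change was -0.14 ± 0.10 (adjusted p = 0.582).

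*Sf3b2*, which contacts the pre-mRNA upstream of the branch point, was at 436, 479 and 429.6 CPM in Gl2-KD and 425, 428 and 408 CPM in Srrm2-KD at 72 h, again without overlap, with -0.09 ± 0.09 (adjusted p = 0.706, edgeR). At 24 h its groups overlapped, at 396, 500.1 and 468 and 414, 469 and 458 CPM. *Sf3b1* was at 612, 474 and 423 CPM in Gl2-KD and 678, 556 and 487 CPM in Srrm2-KD at 72 h, with 0.19 ± 0.10 (adjusted p = 0.461). *Prpf8* was at 763, 396 and 359 and 966, 391 and 398 CPM at 72 h, where the libraries of experiment 1 set the upper end of both groups.

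The knockdown effect was compared between the times within the same fit. The difference, the effect at 72 h minus that at 24 h, had a median of 0.03 over the members and ran from -0.14 for *Snrnp70* to 0.20 for *Bud31*. By edgeR 0 of 53 members were called (0% of all genes), 0 reached an unadjusted p below 0.05 (1.64% of all genes), and DESeq2 and limma-voom called 0 (0.0103% and 0% of all genes). *Bud31* had 0.20 ± 0.15, *Sf3b1* 0.16 ± 0.14, *Slu7* 0.15 ± 0.14 and *Rbm22* -0.13 ± 0.14 (SE; adjusted p = 1 for each, edgeR). For *Sf3b5* the difference was -0.04 ± 0.13, with a 95% interval of -0.32 to 0.24.

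Between 24 h and 72 h, 0 members passed the test in either series. In Gl2-KD, edgeR called 0 of 53 members (1.45% of all genes) and 4 had an unadjusted p below 0.05 (16.8% of all genes), while DESeq2 and limma-voom called 0 (6.89% and 2.48%). In Srrm2-KD, edgeR, DESeq2 and limma-voom called 0 of 53 (0.551%, 5.47% and 1.33% of all genes) and 3 had an unadjusted p below 0.05 by edgeR (16.3% of all genes). The comparison in Gl2-KD shares its libraries with the knockdown comparisons. In Gl2-KD the median log2 fold change was -0.05 and for Srrm2-KD -0.05, against 0.02 and 0.0015 over all genes. The experiments differed in sign: the members' median within experiments 1, 2 and 3 was 0.11, -0.10 and -0.18 in Gl2-KD. In Srrm2-KD it was 0.12, 0.03 and -0.23. Without experiment 3 the fitted median in Srrm2-KD was 0.06.

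*Sf3b4*, an RNA-binding SF3b subunit and one of the members that share sequence with other genes, had the lowest value at 72 h against 24 h in both series. It was at 136, 207 and 136 CPM at 24 h and 133, 142 and 100.4 CPM at 72 h in Gl2-KD, and at 150.0, 186 and 129.8 and 133, 124 and 101 CPM in Srrm2-KD. It was lower at 72 h in 6 of 6 pairs, little in experiment 1 and more in experiments 2 and 3, and the groups overlapped. The log2 fold change was -0.34 ± 0.12 in Gl2-KD and -0.37 ± 0.12 in Srrm2-KD (adjusted p = 0.173 and 0.166, edgeR). In Gl2-KD *Bud31* had -0.33 ± 0.11, *Slu7* -0.20 ± 0.10 and the helicase gene *Dhx16*, which starts the activated spliceosome on the first step, 0.30 ± 0.13, and the value of *Dhx16* came mostly from experiment 1 (155, 287 and 242 CPM at 24 h and 244, 307 and 273 CPM at 72 h). In Srrm2-KD *Sf3b1* had 0.30 ± 0.10, *Snrnp70* -0.26 ± 0.09 and *Eftud2* -0.22 ± 0.10. The libraries at 24 h and 72 h did not overlap for 0 members in Gl2-KD (7.27% of all genes) and for 1 in Srrm2-KD, *U2af2*, the large U2AF subunit that binds the polypyrimidine tract, which was lower at 72 h (7.48% of all genes).

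Of 113 listed genes outside the 53 (LSm proteins, further U2, B-complex and PRPF19-complex proteins, the exon junction complex, minor spliceosome proteins and snRNP assembly factors), 112 were matched and passed the filter. By edgeR 0 of 112 were called in any of the 6 comparisons, where between 0% and 1.45% of all genes were. At an unadjusted p below 0.05 stood 3 at 24 h, 9 at 72 h and 10 over both times, of which 5 were higher and 5 lower in Srrm2-KD. Over all genes the shares were 2.62%, 12.9% and 13.6%, so that these genes stood near or below the background. Their median log2 fold change was 0.03 at 24 h and 0.02 at 72 h.

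Log2 differences of the members between experiment 1 and experiments 2 and 3 ran from -1.05 to 0.99. The range for Srrm2-KD against Gl2-KD over both times was narrower, from -0.08 to 0.31. This holds for the range and not for every member, as *Sf3b3* had 0.18 between the experiments and 0.31 after knockdown. All 4 libraries of experiment 1 were below all 8 libraries of experiments 2 and 3 at 19 of 53 members (13.7% of all genes) and above all 8 at 4 (16.7% of all genes). These counts describe the libraries, with no test. The low members included 7 of 7 Sm ring genes, 3 of 4 U1 genes, *U2af1*, 4 of 12 U2 genes, 2 of 11 tri-snRNP genes and 2 of 9 genes of the PRPF19 group, and 0 of 6 of the second-step group. *Snrpg* was at 43.9 to 59 CPM in experiment 1 and at 93.3 to 129 in experiments 2 and 3, a log2 difference of -1.05, and *Snrpd2* at 139 to 149 and 244 to 325 CPM. The high members were *Prpf8*, *Snrnp200*, *Aqr* and *Sf1*. *Prpf8* was at 763 to 966 CPM in experiment 1 and at 359 to 525 in experiments 2 and 3, and *Snrnp200* at 557 to 704 and 311 to 376 CPM.

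**Figure D4:**
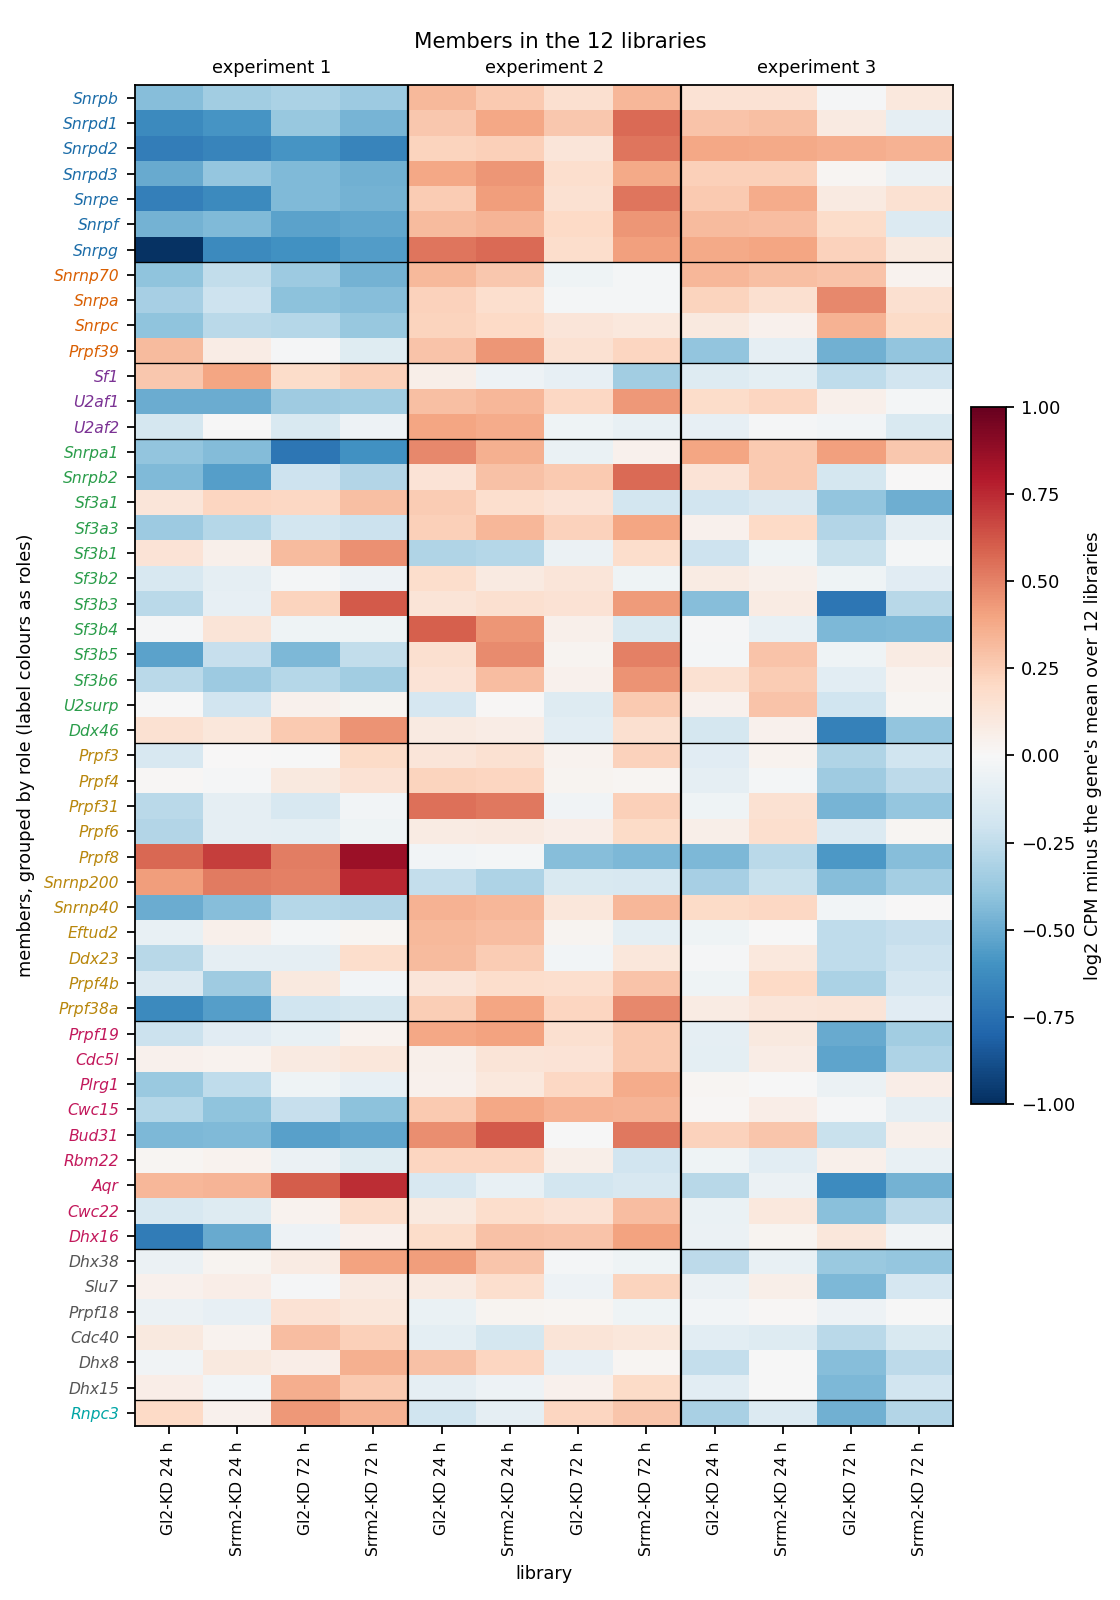
Level of the 53 members in the 12 libraries as log2 CPM minus the mean of each gene, by experiment and role, with the colour scale ending at -1 and 1. The Sm ring is low in all 4 libraries of experiment 1, where *Prpf8*, *Snrnp200* and *Aqr* are high.

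These differences moved with transcript length. Over the 53 members, the log2 difference of experiment 1 from experiments 2 and 3 and the log2 length of the longest coding transcript had a Pearson r of 0.81 and a Spearman rho of 0.80, and over 15552 protein-coding genes r was 0.45 and rho 0.56. Genes are not independent replicates, all points share the same 12 libraries, and no p is given. The difference of experiment 2 from experiment 3 had r = 0.28 with length over the members. Experiments 2 and 3 were not alike either: the members' median log2 difference of experiment 2 from 3 was 0.23, against 9.4e-05 over all genes. For experiment 1 from experiments 2 and 3 these medians were -0.14 and 0.02. Among the 19 members whose longest coding transcript has up to 2000 bases, 16 were below and 0 above in experiment 1. These were 4 of 4 members up to 1000 bases and 12 of 15 between 1000 and 2000. Of all protein-coding genes of these lengths, 45.8% and 34.7% were below. Among the 16 members over 4000 bases, 0 were below and 4 above. Those above were 2 of 10 members up to 6000 bases and 2 of 6 over 6000, where 29.2% and 51.0% of protein-coding genes were. The short members thus exceeded the shares of their lengths and the long members stayed under theirs, which was not tested. By length, the median log2 difference of all protein-coding genes went from -0.71 up to 1000 bases to 0.73 over 6000 bases. Exceptions among the members were *Snrpd3* and *Sf3b5*, which were low in experiment 1 although the annotation gives them 3036 and 3841 bases, and *U2surp* and *Prpf4b*, with 7630 and 7844 bases and log2 differences of -0.05 and -0.16. Among other spliceosome genes, 50 of 112 were below and 6 above in experiment 1, beside 13.7% and 16.7% of all genes. Each experiment holds all 4 groups, so the knockdown and time comparisons were made within experiments. The share of counts from mitochondrial genes was 3.85% to 4.23% in experiment 1 and 2.36% to 3.41% in experiments 2 and 3. The 3 neural markers summed to 32.8 to 36.1 CPM in experiment 1, 12.5 to 24.8 in experiment 2 and 7.83 to 14.6 in experiment 3, the 10 ESC markers to 4865 to 5968, 5923 to 6943 and 6378 to 7579, and the 5 fibroblast or feeder markers to 5.16 to 8.66, 11.6 to 13 and 18 to 26.4. The 4 trophectoderm markers summed to 1.38 to 3.24, 1.99 to 7.65 and 5.25 to 19.4 CPM. Each sum of markers of another cell type was mostly 1 gene, *Pax6* for neural (mean 20.4 CPM, with *Sox1* at 0.841), *Thy1* for fibroblast (mean 11.5 CPM, with *Col1a1* at 0.474) and *Krt7* for trophectoderm (mean 5.83 CPM, with *Cdx2* at 0.0715). The part of these in the differences between experiments was not tested.

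**Figure D5:**
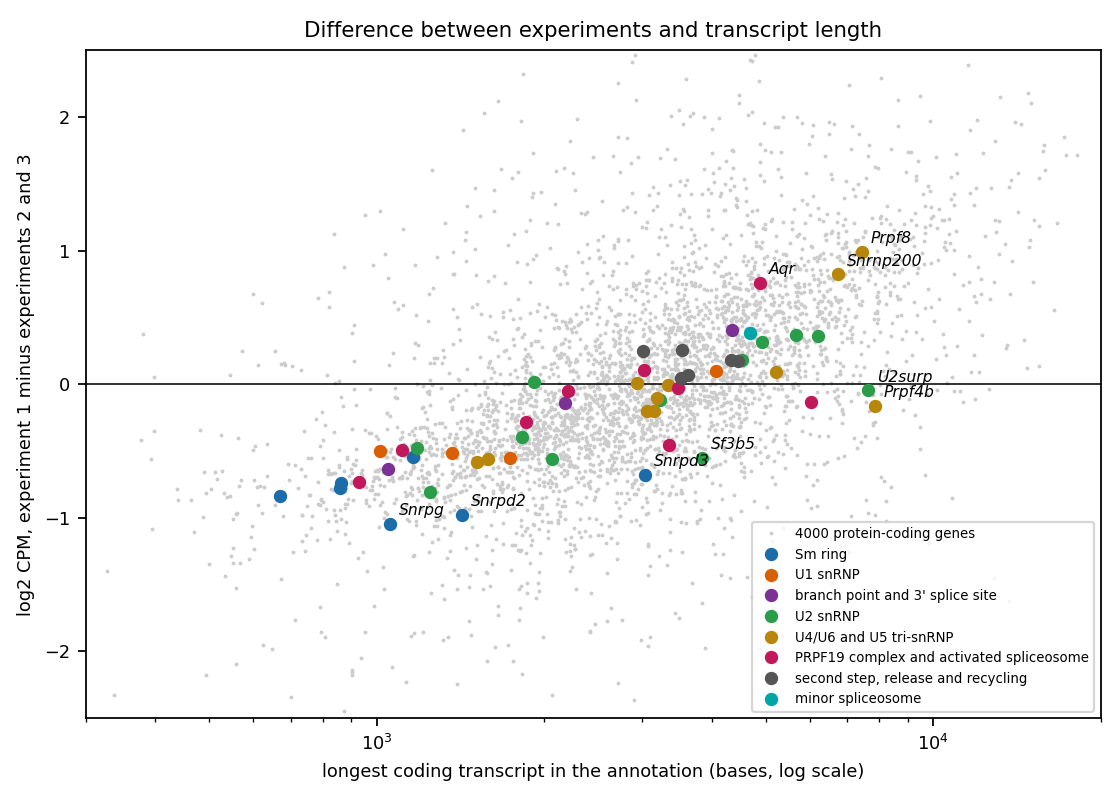
Log2 CPM of experiment 1 minus that of experiments 2 and 3 (means of 4 and 8 libraries) against the length of the longest coding transcript in bases (log axis), for the 53 members by role over 4000 of the protein-coding genes in grey. The values are higher for longer transcripts, with *Snrpg* lowest and *Prpf8* highest.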

How the data were processed

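PolyA+ RNA-seq of 12 libraries of mouse E14tg2a.4 cells was used, with groups and experiment numbers (1 to 3) taken from the labels. The estimated counts per gene were deposited by the authors, and the submitters' processing notes name Kallisto 0.46.1 and mm10. Kallisto divides reads among transcripts, so members that share sequence with other genes are less certain. Counts were rounded, and 19410 of 42450 genes passed filterByExpr of edgeR (minimum count 10, minimum total 15). TMM scaling and the quasi-likelihood test of edgeR 4.0.16 (R 4.3.3) were run on all 12 libraries with group terms and the experiment as a block, with Benjamini-Hochberg adjustment over all genes and calls at an adjusted p below 0.05. CPM values are TMM-scaled. The study's own model had a term for the day of RNA processing, which the sources used here do not give per library, so the experiment was used instead.

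Same-numbered libraries deviated together: over 18 pairs of the same experiment in other groups the correlation of deviations from the group means was 0.44 to 0.88, against -0.77 to 0.39 over 36 pairs of different experiments, and the labels tie a number to an experiment. Nothing in the sources used here says whether the cultures of an experiment were separate beyond that number, so the p-values measure the spread between these libraries. No pair of libraries was a duplicate (at most 0.033% of counts above 1000 were equal).

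Totals were 73933196 to 153343831 counts per library, and intervals from them would cover counting error only. Alternatives were DESeq2 1.42.0, limma-voom 3.58.1, other scalings, filters, blocks and left-out libraries. Lengths, coordinates and shared 31-base words came from GENCODE vM21 (GRCm38), and promoters from RefSeq.

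The members and all lists were chosen with earlier results of these data known. Genes named with a test were *Srrm2*, members called by edgeR, the 4 members of smallest p per comparison among those that moved one way in all 3 experiments, and representatives of each step of splicing. Other members are given as further values of their role or were chosen after their values were seen (*Rbm22* and *Sf3b2* at 72 h, *U2af2*, *Snrpg*, *Snrpd2* and the members named for experiment 1 or for level). The list of other spliceosome genes had 1 unmatched symbol, and *Sf3a2* of that list was named beside the other SF3a genes after its values were seen.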

Additional observations from a re-analysis of the deposited data

How the results depend on the processing

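The count of 0 called members at 24 h, at 72 h, for the difference between the times and for both time comparisons was the same under every alternative that was run for them, namely DESeq2, limma-voom, the newer quasi-likelihood method, RLE factors, library totals, looser and stricter filters, counts not rounded, no replicate block, each left-out library and each left-out experiment, and where they apply the 6 blocks of experiment and time or the libraries of 1 time alone. Over both times it was 1 by DESeq2 and 2 with a replicate block for each experiment and time point, and 0 to 0 with libraries or experiments left out. The fold change of *Srrm2* over both times was -1.11 with no replicate block, where the call was lost, and -1.32 to -1.02 with libraries or experiments left out, where it was lost without experiment 2 and without experiment 3. Single genes were checked in this way only if named with a test, and only in the comparisons they were named for. Other members near 0, such as *Snrpf*, were not checked. Without libraries or experiments, the direction turned for *Sf3b3* at 24 h (-0.018 to 0.42) and over both times for *Sf1* (-0.071 to 0.060), *U2af1* (-0.010 to 0.083), *Eftud2* (-0.042 to 0.052), *Prpf4b* (-0.067 to 0.14), *Cdc40* (-0.080 to 0.0011) and *Rnpc3* (-0.040 to 0.13), all log2 fold changes whose reported value was within its error of 0 except that of *Sf3b3*. The median of the members was -0.02 to 0.13 at 24 h and 0.0011 to 0.15 at 72 h with libraries or experiments left out, and 0.05 to 0.07 and 0.08 to 0.09 under the other alternatives. Library totals in place of TMM gave 7 members above in experiment 1 in place of 4. With a replicate block for each experiment and time, 1124 genes of 19410 were called over both times, against 13, and 733 by DESeq2. The lowest count of a member in any library was 992, so the errors rest mainly on 3 experiments per group, with 6 residual degrees of freedom. The cause of the differences between blocks was not tested.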
